A study of Caenorhabditis elegans with 12 samples.

Results

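The microRNA hairpins mir-1018, mir-1829a, mir-1829b, mir-1829c, mir-2208a, mir-2208b, mir-2209a, mir-2209b and mir-2209c were followed in Caenorhabditis elegans across age and exposure to rotenone. They were chosen by name, as every hairpin called mir-1018 or carrying the family names mir-1829, mir-2208 or mir-2209, which gave 9 of the 250 hairpins counted. No measured value entered that rule, but the members were chosen with earlier results of these data known. The worms were hermaphrodites of the wild-type laboratory strain N2, taken whole, and no library carries an added allele or transgene. The 4 groups of 3 small RNA libraries were day 15 rotenone, day 15 DMSO, day 5 rotenone and day 5 DMSO. Rotenone, an inhibitor of complex I of the mitochondrial respiratory chain, was given at 100 nM for 24 hours from the L4 larval stage, and the control worms received the solvent DMSO at 0.1%. The labels do not say from which stage the days are counted, nor whether the 3 libraries of a group came from separate cultures, so p-values measure the spread between these libraries, which may be technical.

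A microRNA is cut from a folded precursor, the hairpin, and then guides an Argonaute protein to messenger RNAs that pair with its seed. Most hairpins are released from longer transcripts by the nuclease Drosha and then cut by Dicer. A mirtron skips the Drosha step, because the spliced intron is itself the hairpin, and mir-1018 was among the first mirtrons described in worms. Letter suffixes mark hairpins with closely related mature sequences, so the mir-1829, mir-2208 and mir-2209 names stand for families of such copies.

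The hairpins lie in 3 kinds of place in the WBcel235 annotation, where all 9 were matched by name. The mir-1018 hairpin is on chromosome X from 1879458 to 1879513 on the plus strand, and its 56 bases are exactly intron 27 of the noncoding RNA gene Y59E1B.1. The only mature product annotated for it, 22 bases from 1879492 to 1879513, ends with the last base of that intron. The mir-1829 hairpins are also on chromosome X, spread over 611252 bases, and each is in an intron of a different protein-coding gene and on that gene's strand. The host of mir-1829a (15588311 to 15588370, minus strand) is gas-1, which encodes a core subunit of complex I, and the hairpin takes up 60 of the 1552 bases of intron 5. The host of mir-1829b (14977119 to 14977178, plus strand) is F20D1.3, in its intron 2 of 844 bases. The host of mir-1829c (15236362 to 15236423, minus strand) is piki-1, a phosphoinositide 3-kinase gene that acts in the engulfment of dying cells, in its intron 20 of 1861 bases.

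The 5 hairpins of the mir-2208 and mir-2209 families form a cluster of 5979 bases on chromosome IV, outside annotated protein-coding genes and between rbm-39 and abhd-14. On the plus strand come mir-2208a (1021772 to 1021832), mir-2208b (1026580 to 1026640), mir-2209a (1027101 to 1027164) and mir-2209c (1027218 to 1027281). On the minus strand is mir-2209b (1021303 to 1021365), 406 bases from mir-2208a. The gap between mir-2209a and mir-2209c is 53 bases and that between mir-2208b and mir-2209a is 460 bases. The build behind the deposited counts is not given in the sources used here, so these positions describe the hairpins and were not used for counting.

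Total counts over all hairpins were 4215830 to 5856949 reads per library in day 15 rotenone, 4727531 to 5989717 in day 15 DMSO, 8891063 to 11045174 in day 5 rotenone and 8845726 to 10481528 in day 5 DMSO. The 12 libraries were sequenced in lanes 6 and 7, with 2 libraries of each day 5 group and 1 of each day 15 group in lane 6. Of the 250 hairpins 181 had enough counts to be tested, the 9 described here among them. Markers of the tissues of a whole worm had reads in every group, among them the muscle hairpin mir-1, the intestinal hairpin mir-60 and the glial hairpin mir-228, and none of the 14 marker hairpins was at 0.

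Levels are given as CPM, hairpin counts divided by library size and scaled by edgeR's TMM factors. All 9 hairpins are 56 to 64 bases long, and no scaling by length was made. In day 5 DMSO libraries mir-1829b averaged 173 ± 6.43 CPM and mir-2209a 168 ± 10.8 CPM (SD, n = 3 in each group here and below). These neighbours in the order of levels lay within their spread of each other, as did mir-1829c at 107 ± 6.80 CPM and mir-1018 at 106 ± 7.50 CPM. Far below them, mir-1829a averaged 20.7 ± 1.93 CPM, mir-2208b 4.37 ± 1.28 CPM and mir-2208a 1.68 ± 0.419 CPM. At the bottom were mir-2209c at 0.749 ± 0.385 CPM and mir-2209b at 0.677 ± 0.260 CPM, close to the 0.286 to 0.339 CPM that 3 counts amount to in those libraries. Together the 9 hairpins took 0.107 ± 0.00754% of the hairpin reads in day 15 rotenone, 0.109 ± 0.00486% in day 15 DMSO, 0.0702 ± 0.00497% in day 5 rotenone and 0.0559 ± 0.00243% in day 5 DMSO.

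**Figure D1:**
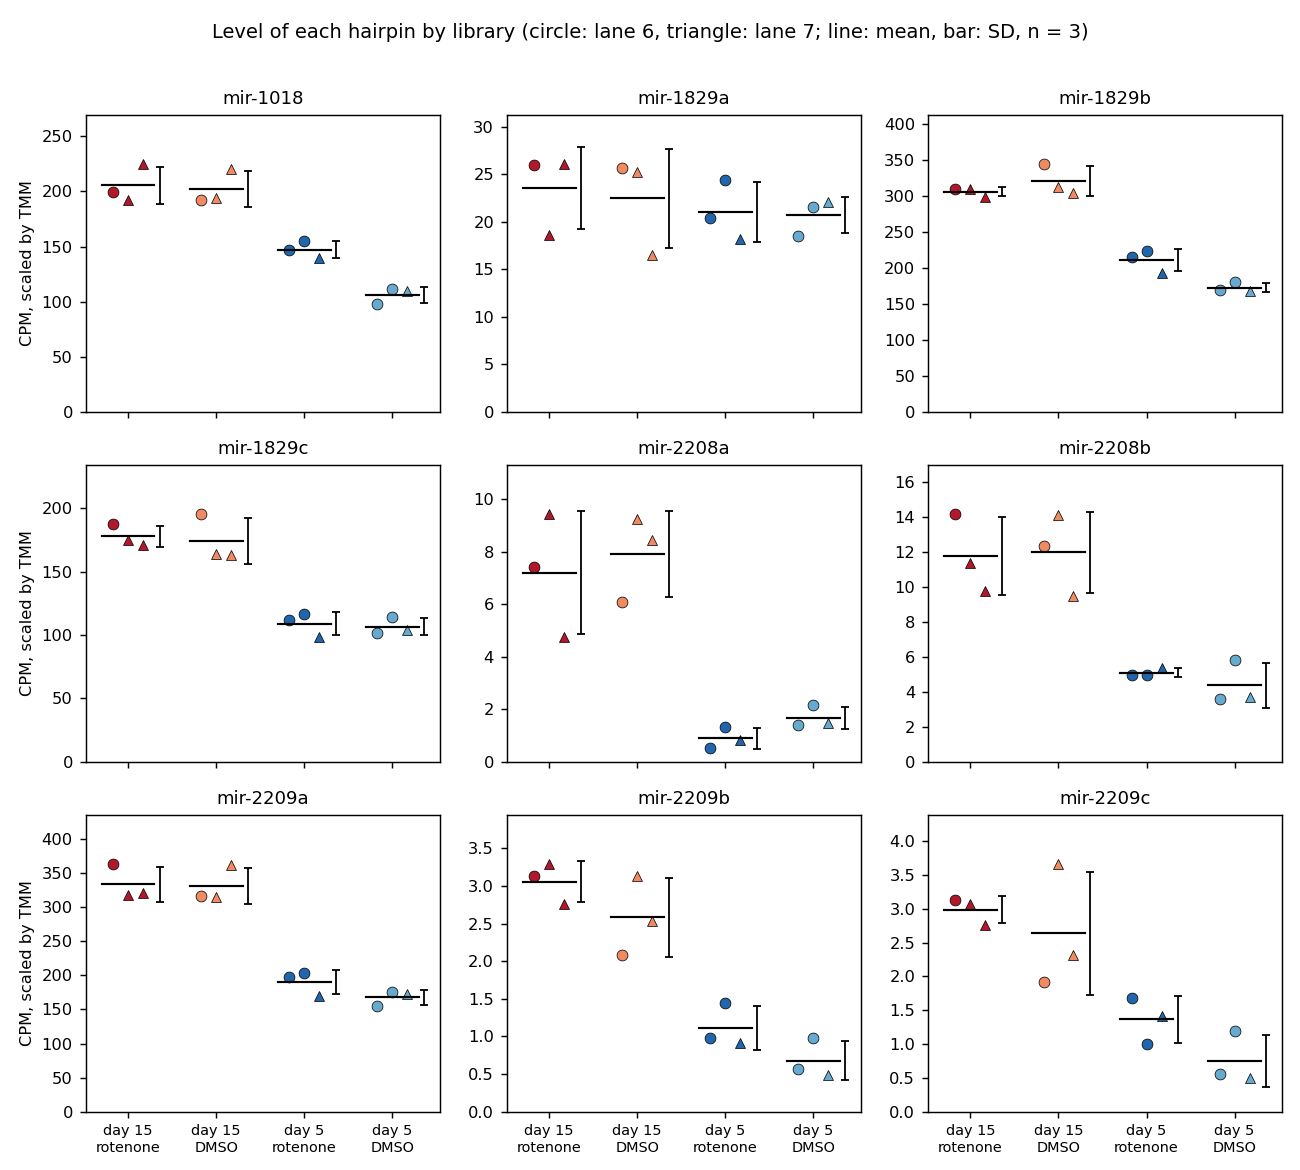
Level of each of the 9 hairpins in each library, in CPM scaled by TMM on linear axes that start at 0, with a horizontal line for the mean and a bar for the SD of 3 libraries. Circles are lane 6 and triangles lane 7. In 8 of the 9 panels all day 15 libraries lie above all day 5 libraries of the same treatment. In the panel of mir-1829a the ages overlap. The 8 include mir-2209b and mir-2209c, which entered the test through day 15. Overlap was not counted for the other tested hairpins, so this count has no background to be set against.

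The first question was how the hairpins differed between day 15 and day 5. In DMSO 8 of the 9 were called higher at day 15, where a call is a p under 0.05 from edgeR's quasi-likelihood test after Benjamini-Hochberg adjustment across the 181 tested hairpins, and 38.1% of all tested hairpins were called higher. In rotenone-exposed worms the count was also 8 of 9, against 37.6% of all tested hairpins. The hairpin without a call was mir-1829a in both. The median log2 fold change of the 9 was 0.98 in DMSO, against -0.02 over all tested hairpins, and 0.81 in rotenone, against 0.01. The 2 rarest, mir-2209b and mir-2209c, reached the level that the filter on low counts asks for, 1.35 CPM, in all 6 day 15 libraries but in 0 of 3 day 5 DMSO libraries. In day 5 rotenone mir-2209b reached it in 1 of 3 libraries and mir-2209c in 2 of 3. They thus entered the test through the age at which they were high, and their calls add no support to the counts of 8. Without mir-2209b and mir-2209c the medians of the other 7 were 0.93 in DMSO and 0.71 in rotenone.

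The mirtron mir-1018 had 199, 192 and 225 CPM in the day 15 rotenone libraries, 192, 194 and 221 CPM in day 15 DMSO, 147, 155 and 140 CPM in day 5 rotenone and 97.6, 112 and 109 CPM in day 5 DMSO. Every day 15 library stood above every day 5 library, and the day 5 rotenone libraries stood above the day 5 DMSO libraries. In DMSO it was 1.90-fold higher at day 15 (log2 0.93 ± 0.08 SE, with an adjusted p of 1.06e-10 in edgeR's quasi-likelihood fit). In rotenone it was 1.39-fold higher (log2 0.48 ± 0.08 SE, adjusted p = 9.78e-06, same test). Within lane 6 and lane 7 alone the DMSO change was 0.91 and 0.91 on the log2 scale, and the rotenone change 0.49 and 0.51.

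The 3 mir-1829 hairpins did not change alike with age. The most abundant, mir-1829b, had 310, 309 and 299 CPM in day 15 rotenone, 344, 313 and 304 CPM in day 15 DMSO, 215, 224 and 194 CPM in day 5 rotenone and 170, 180 and 168 CPM in day 5 DMSO. Its ages did not overlap, and it was 1.86-fold higher at day 15 in DMSO (log2 0.89 ± 0.07 SE, with an adjusted p of 1.9e-11 in edgeR's quasi-likelihood fit) and 1.45-fold higher in rotenone (log2 0.54 ± 0.07 SE). The copy in piki-1, mir-1829c, had 187, 175 and 171 CPM in day 15 rotenone, 195, 164 and 163 CPM in day 15 DMSO, 112, 116 and 98.8 CPM in day 5 rotenone and 101, 114 and 104 CPM in day 5 DMSO. Its ages did not overlap either, and the change was 1.64-fold both in DMSO and in rotenone (log2 0.71 ± 0.09 SE in each). The copy in gas-1, mir-1829a, had 26.0, 18.6 and 26.0 CPM in day 15 rotenone, 25.7, 25.2 and 16.5 CPM in day 15 DMSO, 20.4, 24.4 and 18.2 CPM in day 5 rotenone and 18.5, 21.5 and 22.1 CPM in day 5 DMSO. All 4 of its groups overlapped. Its change was 0.14 ± 0.16 on the log2 scale in DMSO, with a 95% interval of -0.19 to 0.46, and 0.17 ± 0.16 in rotenone, with an interval of -0.16 to 0.50. Within lane 6 alone the DMSO change of mir-1829a was 0.39 and was called (adjusted p = 0.0343, edgeR quasi-likelihood test), while within lane 7 it was -0.08.

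In the chromosome IV cluster all 5 hairpins were called higher at day 15 in both treatments. Of all tested hairpins 38.1% were called higher in DMSO and 37.6% in rotenone. Among the 5 are mir-2209b and mir-2209c, which entered the test through day 15 and add no support to the count of 5. The most abundant, mir-2209a, had 363, 317 and 320 CPM in day 15 rotenone, 317, 315 and 361 CPM in day 15 DMSO, 197, 203 and 170 CPM in day 5 rotenone and 155, 175 and 173 CPM in day 5 DMSO. No day 15 library fell among the day 5 libraries, and mir-2209a was 1.97-fold higher at day 15 in DMSO (log2 0.98 ± 0.08 SE) and 1.75-fold higher in rotenone (log2 0.81 ± 0.08 SE). The steepest change was that of mir-2208a, which is read at low counts. It had 45, 43 and 19 reads in day 15 rotenone, 38, 53 and 40 reads in day 15 DMSO, 6, 12 and 8 reads in day 5 rotenone and 15, 20 and 12 reads in day 5 DMSO, although the day 15 libraries were the shallower ones. As CPM these were 7.40, 9.42 and 4.76 in day 15 rotenone, 6.09, 9.23 and 8.44 in day 15 DMSO, 0.531, 1.33 and 0.810 in day 5 rotenone and 1.41, 2.17 and 1.47 in day 5 DMSO. The ages did not overlap, and mir-2208a was 4.64-fold higher at day 15 in DMSO (log2 2.22 ± 0.28 SE, with an adjusted p of 5.79e-08 in edgeR's quasi-likelihood fit) and 8.31-fold higher in rotenone (log2 3.06 ± 0.33 SE, adjusted p = 3.29e-09). Ranked by log2 fold change among the 181 tested hairpins, it was number 4 in DMSO and number 2 in rotenone. Only 1 of 3 day 5 rotenone libraries reached the filter level of 1.35 CPM for mir-2208a, while 3 of 3 day 5 DMSO libraries did.

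Its neighbour mir-2208b had 14.2, 11.4 and 9.77 CPM in day 15 rotenone, 12.3, 14.1 and 9.50 CPM in day 15 DMSO, 4.95, 4.99 and 5.37 CPM in day 5 rotenone and 3.57, 5.85 and 3.68 CPM in day 5 DMSO. Here too the ages did not overlap, with changes of 2.77-fold in DMSO (log2 1.47 ± 0.21 SE) and 2.35-fold in rotenone (log2 1.23 ± 0.21 SE). The share of mir-2208a among the reads of both mir-2208 hairpins was 37.5 ± 6.81% in day 15 rotenone, 39.9 ± 7.01% in day 15 DMSO, 14.6 ± 5.83% in day 5 rotenone and 28.0 ± 0.825% in day 5 DMSO.

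The remaining mir-2209 hairpins hardly registered beside mir-2209a, which held 98.2 ± 0.156% of the family's reads in day 15 rotenone, 98.4 ± 0.474% in day 15 DMSO, 98.7 ± 0.0890% in day 5 rotenone and 99.2 ± 0.342% in day 5 DMSO. Summed over 3 libraries, mir-2209b had 45 reads in day 15 rotenone, 43 in day 15 DMSO, 33 in day 5 rotenone and 19 in day 5 DMSO, and mir-2209c had 44 in day 15 rotenone, 44 in day 15 DMSO, 42 in day 5 rotenone and 21 in day 5 DMSO. Their counts were equal in 4 libraries and differed by at most 3 in 9 of the 12, and by 8 at most. How reads that match several hairpins were counted is not given in the sources used here, so mir-2209b and mir-2209c are best taken as 1 uncertain measurement, and the split of reads between copies of a family carries that uncertainty throughout. Their changes with age were 1.90 ± 0.36 for mir-2209b and 1.79 ± 0.38 for mir-2209c on the log2 scale in DMSO, and 1.48 ± 0.32 for mir-2209b and 1.10 ± 0.33 for mir-2209c in rotenone. Within lane 7 the rotenone change of mir-2209c was 0.97 and was not called (adjusted p = 0.104, edgeR quasi-likelihood test).

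Markers of other tissues moved with age in the same libraries. All 8 hairpins of the miR-35 family, which are abundant in oocytes and embryos, were called higher at day 15 in both treatments. Their summed level was 160316 to 168920 CPM in day 15 rotenone, 155439 to 163876 CPM in day 15 DMSO, 100258 to 102905 CPM in day 5 rotenone and 84655.5 to 97987.8 CPM in day 5 DMSO. The muscle hairpin mir-1, the intestinal hairpin mir-60, the glial hairpin mir-228 and all 3 neuronal markers were called lower at day 15 in both treatments. Calls with age were common among the 181 tested hairpins, with 69 higher and 76 lower in DMSO, and 68 higher and 68 lower in rotenone. The part of tissue composition in the changes of the 9 hairpins was not tested, and in whole worms fewer cells of a type and less RNA per cell cannot be told apart.

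**Figure D2:**
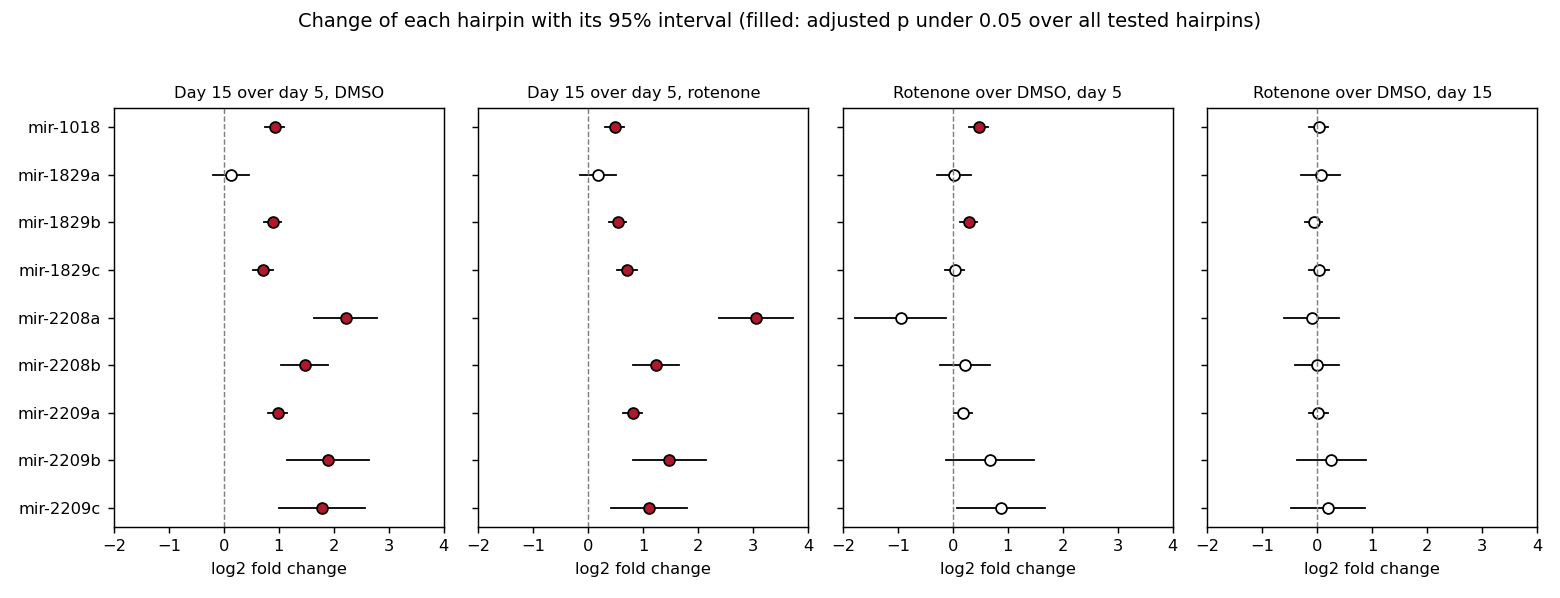
Log2 fold change of each hairpin in 4 comparisons, with its 95% interval, and filled points for an adjusted p under 0.05 over all tested hairpins. In both age comparisons all points but that of mir-1829a are filled. The fills of mir-2209b and mir-2209c add no support there, as both entered the test through day 15. With rotenone, mir-1018 and mir-1829b are filled at day 5 and no point is filled at day 15.

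The next question was how worms exposed to rotenone differed from their DMSO controls. At day 5, 2 of the 9 hairpins were called higher, mir-1018 and mir-1829b, against 6.08% of all tested hairpins. None of the 9 was called lower, against 35 of all 181 tested hairpins. With the CPM given above, mir-1018 was 1.39-fold higher in rotenone (log2 0.47 ± 0.08 SE, with an adjusted p of 0.000175 in edgeR's quasi-likelihood fit) and mir-1829b 1.22-fold higher (log2 0.29 ± 0.07 SE, adjusted p = 0.00431). The 3 rotenone libraries were above the 3 DMSO libraries for each of them. Within lane 6 the changes were 0.58 for mir-1018 and 0.38 for mir-1829b, both called. Within lane 7, where each group has 1 library at day 5, they were 0.39 and 0.24 and neither was called (adjusted p = 0.252 and 0.279, edgeR quasi-likelihood test). Tissue markers moved in the same comparison. Of the 8 miR-35 family hairpins 3 were called higher, while the muscle hairpin mir-1 was called lower at -0.24 on the log2 scale and the intestinal hairpin mir-60 at -0.22, and the neuronal and glial markers had no call. Their part in the changes of mir-1018 and mir-1829b was not tested.

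The other 7 had no call at day 5. The change of mir-1829c was 0.03 ± 0.09 on the log2 scale (95% interval -0.15 to 0.21) and that of mir-1829a 0.02 ± 0.15 (-0.28 to 0.33). That of mir-2209a was 0.18 ± 0.08 with an adjusted p of 0.105 in edgeR's quasi-likelihood fit, and its groups overlapped. It passed the threshold in 12 of 23 other settings, some of which only left out a day 15 library. The lanes differed, with a change of 0.33 within lane 6 and 0.02 within lane 7. The scarce mir-2208a pointed the other way, at -0.95 ± 0.40, the lowest log2 fold change of the 181 tested hairpins, with rotenone libraries at 6 to 12 reads all below DMSO libraries at 12 to 20 reads once scaled. Its adjusted p was 0.0812 by the same test. With 1 library left out its change was -1.32 to -0.65, and it passed in 1 of 23 other settings, without day 5 rotenone replicate 2 (-1.32, adjusted p = 0.0467, edgeR quasi-likelihood test). The changes of mir-2208b, mir-2209b and mir-2209c were 0.23 ± 0.22, 0.68 ± 0.39 and 0.87 ± 0.39, with overlapping groups. With 1 library left out they were 0.08 to 0.49 for mir-2208b, 0.47 to 1.01 for mir-2209b and 0.68 to 1.35 for mir-2209c, and only mir-2209c passed, in 1 of 21 other settings, without day 5 DMSO replicate 2 (1.35, adjusted p = 0.0342, edgeR quasi-likelihood test). The median over the 9 was 0.23, or 0.18 without mir-2209b and mir-2209c, against -0.04 over all tested hairpins.

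The sizes and the share of calls in each direction depended on the scaling. The median log2 fold change of all tested hairpins at day 5 was -0.04 with TMM, -0.01 with RLE size factors, 0.04 with library size alone and 0.08 when the 3 most abundant hairpins were left out, and calls among all tested hairpins were 11 higher and 35 lower with TMM, 17 higher and 29 lower with RLE, 23 higher and 17 lower when only library size was used, and 29 higher and 14 lower without those 3. Relative to the median of its own scaling, mir-1018 was 0.51 to 0.52 higher and mir-1829b 0.33 higher, distances that a change of scaling leaves nearly fixed by construction.

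At day 15 none of the 9 hairpins was called and none had an unadjusted p under 0.05, among 0% of tested hairpins called and 3 of 181 at that unadjusted p in edgeR's quasi-likelihood fit. DESeq2 and limma-voom also called none of the 9. Log2 changes were between -0.11 for mir-2208a and 0.25 for mir-2209b. The groups of all 9 overlapped, which was not counted for the other tested hairpins. The change of mir-1018 was 0.02 with a 95% interval of -0.15 to 0.20, and that of mir-1829b was -0.07 with an interval of -0.22 to 0.08. Within lane 6, where each day 15 group has 1 library, mir-2209a was called higher (log2 0.31, adjusted p = 0.0289, edgeR quasi-likelihood test), while within lane 7 it was -0.11.

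Whether the rotenone effect differed between the ages was tested as an interaction, day 15 minus day 5. Both hairpins that rose at day 5 were called, at -0.45 ± 0.12 for mir-1018 (adjusted p = 0.0183, edgeR quasi-likelihood test) and -0.36 ± 0.10 for mir-1829b (adjusted p = 0.0328), so 2 of the 9 were called lower, against 1.66% of all tested hairpins. That background also depended on the scaling, with 9 hairpins called higher and 3 lower for TMM, 8 and 4 for RLE, 4 and 7 for library size only, and 3 and 10 when the 3 most abundant hairpins were left out. The interaction uses the same day 5 libraries as the comparison at day 5 and adds no separate evidence for it. Its calls held in 20 of 22 other settings for mir-1018 and in 19 of 22 for mir-1829b, against 22 of 23 for each hairpin at day 5. For mir-1018 the call was lost without day 5 rotenone replicate 2 (-0.42, adjusted p = 0.0577), and for mir-1829b it was lost without day 5 rotenone replicate 1 (-0.35, adjusted p = 0.0747) or replicate 2 (-0.32, adjusted p = 0.103), all by edgeR's quasi-likelihood test. Within lane 7 both calls were lost, at -0.40 and -0.28 (adjusted p = 0.423 for each), and within lane 6 both held at -0.41 and -0.42. The other 7 had no call, and mir-1829c was at 0.00 ± 0.12 with an interval of -0.25 to 0.25.

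**Figure D3:**
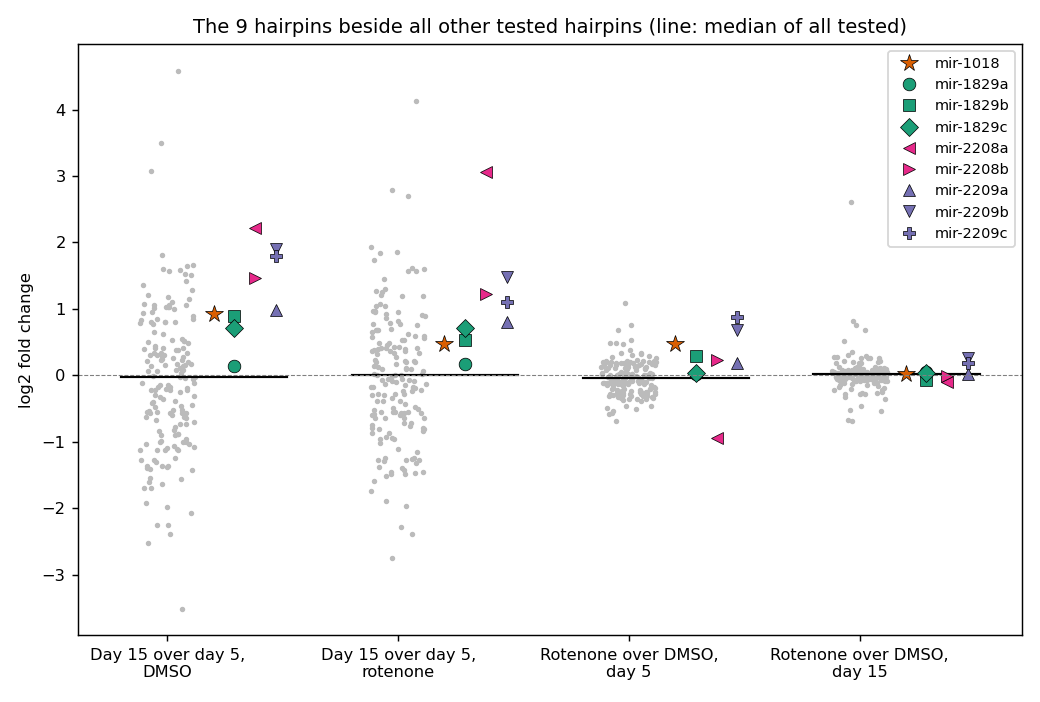
Log2 fold changes of the 9 hairpins (coloured symbols, by family) beside those of the other tested hairpins (grey points) in the same 4 comparisons, with a line at the median of all 181. All 9 lie above the median in both age comparisons, but mir-2209b and mir-2209c entered the test through day 15 and add no support. With rotenone at day 5 mir-2208a lies below all other hairpins, at 6 to 20 reads a library and without a call.

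A ratio of 2 hairpins within a library does not depend on the scaling, and the mir-1829 copies were compared in this way. For 1 read of mir-1829b there were 0.0771 ± 0.0147 reads of mir-1829a in day 15 rotenone, 0.0698 ± 0.0139 in day 15 DMSO, 0.0993 ± 0.00834 in day 5 rotenone and 0.120 ± 0.0112 in day 5 DMSO. All 6 day 15 libraries were below all 6 day 5 libraries. The mean log2 ratio was lower at day 15 by -0.59, with an exact two-sided permutation p of 0.005, the smallest that 400 arrangements within treatments allow (adjusted p = 0.015 over 6 tests). The ratio of mir-1829a to mir-1829c behaved alike, at 0.132 ± 0.0236 in day 15 rotenone, 0.129 ± 0.0268 in day 15 DMSO, 0.192 ± 0.0152 in day 5 rotenone and 0.194 ± 0.0155 in day 5 DMSO, with a difference of -0.58 (exact permutation p = 0.005, adjusted p = 0.015). Thus mir-1829a and its paralogs differed in their change with age, and with lanes also kept apart both differences were -0.56 and -0.57 (adjusted exact permutation p = 0.037). The ratio of mir-1829b to mir-1829c had a difference of 0.01 between the ages (exact permutation p = 0.89).

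Between treatments, averaged over the ages, none of the 3 ratios passed the exact permutation test (adjusted p = 0.49 to 0.89). The ratio of mir-1829b to mir-1829c moved in opposite directions at the ages. It was 1.92, 1.92 and 1.96 in the day 5 rotenone libraries, against 1.68, 1.57 and 1.61 in the day 5 DMSO libraries, which did not overlap. At day 15 it was 1.65, 1.77 and 1.74 in rotenone, against 1.76, 1.91 and 1.86 in DMSO, which overlapped. This split by age was made after the values were seen, and 3 libraries against 3 cannot give an exact permutation p under 0.1, which is the value at day 5 (0.2 at day 15).

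**Figure D4:**
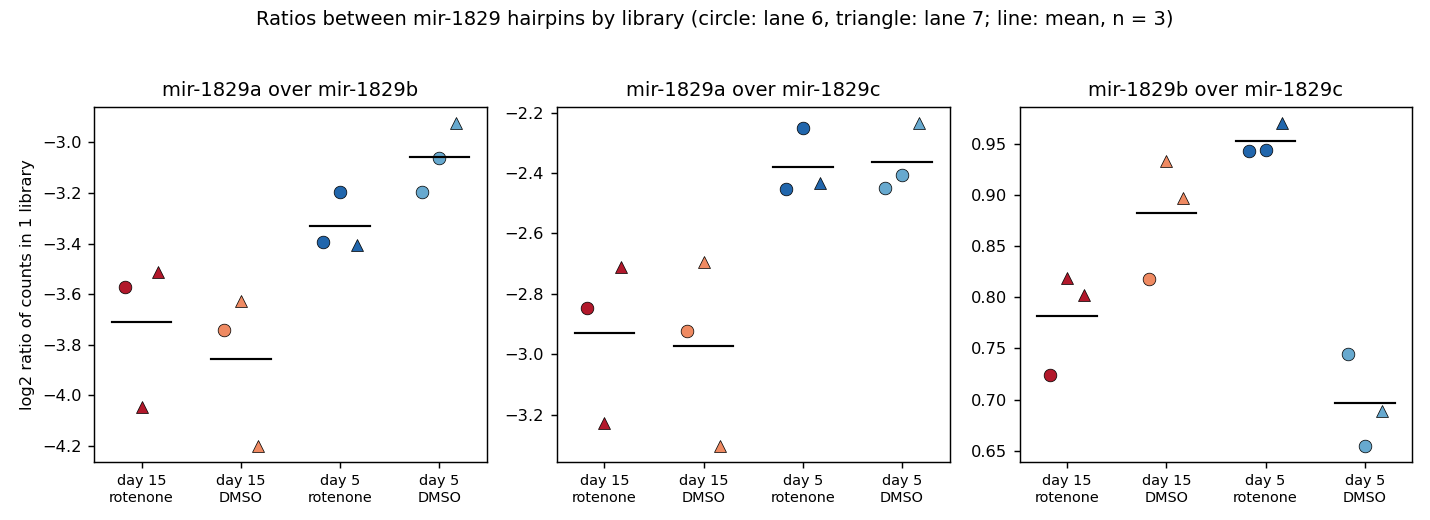
Log2 ratio of the counts of 2 mir-1829 hairpins in each library, with a line at the mean of 3 libraries, circles for lane 6 and triangles for lane 7. Both ratios with mir-1829a on top are lower in all day 15 libraries than in all day 5 libraries, and the ratio of mir-1829b to mir-1829c is highest in day 5 rotenone and lowest on average in day 5 DMSO.

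The host of mir-1018 is itself unusual in the annotation. Y59E1B.1 has 35 exons and 34 introns, and 11 of those introns coincide base for base with an annotated hairpin on the same strand, out of 21 hairpins in the whole count table that are exactly an intron. In the order of the introns they are mir-4807, mir-4808, mir-4809, mir-2220, mir-4810b, mir-4810a, mir-1018, mir-4925, mir-4923b, mir-4923a and mir-4921, each 56 to 61 bases long. The closest to mir-1018 is mir-4925, 48 bases downstream across an exon. Summed over the 12 libraries mir-1018 had 13739 reads, mir-4807 had 1093, mir-2220 had 527 and mir-4921 had 2, so that mir-1018 held 78.9 ± 1.51% of the reads of these introns in day 15 rotenone, 79.7 ± 1.02% in day 15 DMSO, 86.4 ± 1.0% in day 5 rotenone and 87.2 ± 1.06% in day 5 DMSO.

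Of the 11 hairpins of Y59E1B.1, 7 had enough counts to be tested. With age in DMSO 5 were called higher and none lower, against 38.1% of all tested hairpins called higher and 76 of 181 lower. The 5 were mir-1018, mir-4807, mir-2220, mir-4809 and, just under the threshold, mir-4923b (adjusted p = 0.0489 in edgeR's quasi-likelihood fit). The scarce mir-4923b averaged 1.76 ± 0.435 CPM in day 15 DMSO and 1.02 ± 0.246 CPM in day 5 DMSO, on either side of the filter level of 1.35 CPM. It may thus have entered the test through day 15, where it was high, and its call adds little. The change of mir-4807 was 3.07 ± 0.17 on the log2 scale, with 30.1 ± 0.0487 CPM in day 15 rotenone, 26.2 ± 3.09 CPM in day 15 DMSO, 4.34 ± 0.641 CPM in day 5 rotenone and 3.05 ± 0.606 CPM in day 5 DMSO. The change of mir-2220 with age in DMSO was 1.66 ± 0.23 and that of mir-4810a was 0.16 ± 0.24, so the changes of hairpins from 1 transcript spanned 0.16 to 3.07. With age in rotenone 3 of the 7 were called higher, mir-1018, mir-4807 and mir-2220, against 37.6% of all tested hairpins. With rotenone at day 5, 2 of the 7 were called higher, mir-1018 and mir-2220, against 6.08% of all tested hairpins, mir-2220 with a log2 change of 1.09 ± 0.23 (in edgeR's quasi-likelihood fit, adjusted p = 0.000902), at 5.79 ± 0.795 CPM in day 5 rotenone and 2.77 ± 1.08 CPM in day 5 DMSO. At day 15 none of the 7 was called with rotenone.

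**Figure D5:**
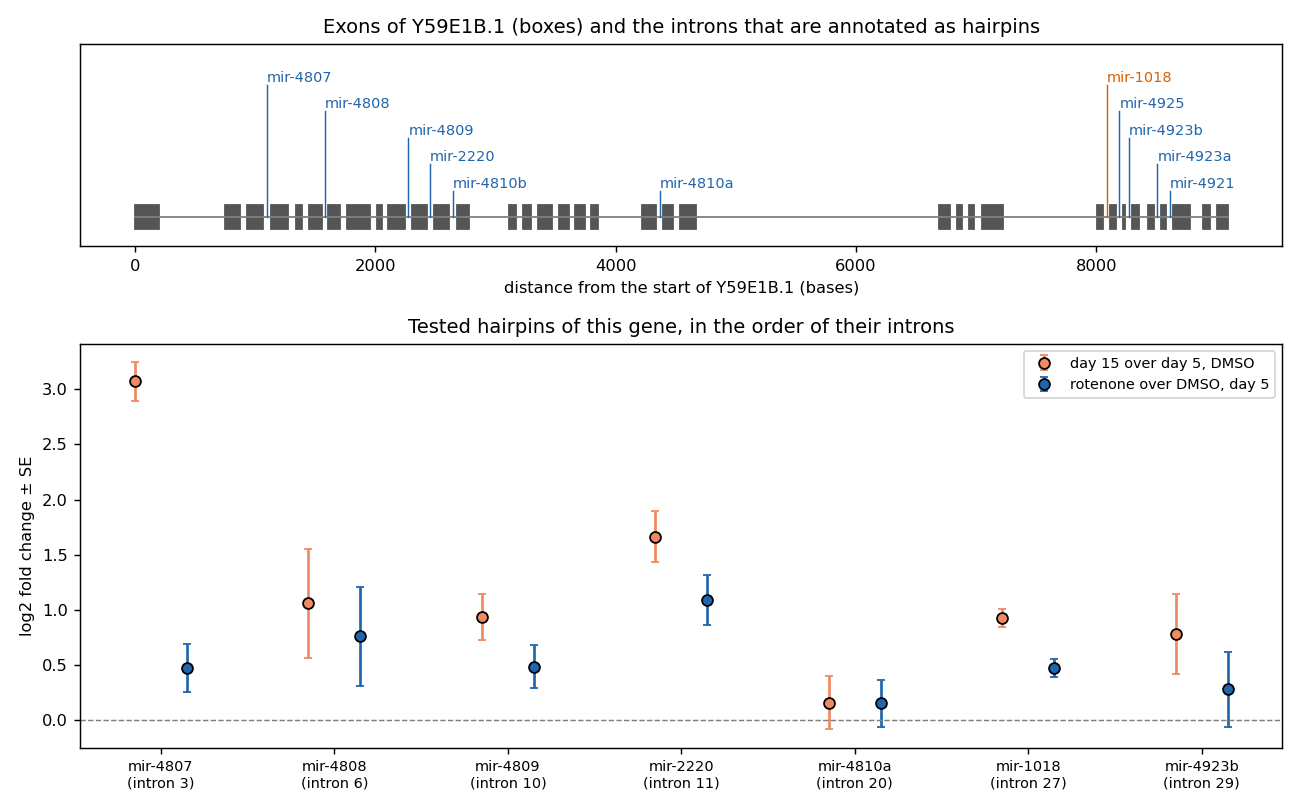
Top, the exons of Y59E1B.1 as boxes along the distance from its start in bases, with the 11 introns that are annotated as hairpins. Bottom, log2 fold change ± SE of the 7 tested hairpins with age in DMSO and with rotenone at day 5, where mir-4807 has the highest change with age and mir-2220 the highest with rotenone.

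Hairpins that are exactly an intron moved in both directions with age, as did the tested hairpins in general. Of the 21 such hairpins 10 were tested, and in DMSO 5 of them were called higher at day 15, all from Y59E1B.1, and 3 lower. The 5 include mir-4923b, whose call adds little, as said above. Among all 181 tested hairpins 69 were called higher and 76 lower in that comparison. Among mir-62, mir-1018, mir-1019 and mir-1020, mirtrons of 4 different genes, 3 were tested. With age mir-1018 was called higher in both treatments, while mir-62 and mir-1020 were called lower in both, in DMSO by -0.60 ± 0.10 and -2.26 ± 0.21 on the log2 scale. With rotenone at day 5 mir-1020 was called lower at -0.54 ± 0.15, with 9.47 ± 0.592 CPM in rotenone and 13.9 ± 1.84 CPM in DMSO, and mir-62 was at -0.05 ± 0.09. The untested mir-1019 had 11 reads in all 12 libraries together.

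Near the intronic mir-1829 hairpins the annotation has 1 other hairpin within 10000 bases, mir-4812, 6350 bases from mir-1829c and on its strand. It had 4.88 ± 1.54 CPM in day 15 rotenone, 5.05 ± 1.13 CPM in day 15 DMSO, 5.03 ± 0.540 CPM in day 5 rotenone and 4.30 ± 1.29 CPM in day 5 DMSO, and no comparison called it.

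The hairpins whose levels ran most like those of the 5 abundant members were ranked by Pearson's r of log2 CPM over the 12 libraries, among 126 other hairpins of at least 10 CPM. These libraries share the split by age, which raises any such r between hairpins that changed with age, and no p is given. For mir-1018 the 3 most alike were mir-61 (0.97), mir-42 (0.95) and mir-39 (0.94), of which mir-39 and mir-42 belong to the miR-35 family. For mir-2209a they were mir-61 (0.98), mir-250 (0.98) and mir-42 (0.97), and for mir-1829b mir-250 (0.98), mir-42 (0.97) and mir-43 (0.97). For mir-1829c they were mir-795, mir-250 and mir-786 (0.97 each). For mir-1829a no hairpin ran closely alike, the highest being mir-252 at 0.65, followed by mir-73 at 0.49 and mir-45 at 0.41. With the group means taken out, r for these pairs spread from -0.10 to 0.82, with r between mir-1829b and mir-42 at -0.10, between mir-2209a and mir-42 at 0.04, between mir-2209a and mir-250 at 0.16 and between mir-1018 and mir-61 at 0.82. Measured in this way mir-1829b and mir-1829c had an r of 0.94 over the 12 libraries, and mir-1829a had an r of 0.52 with mir-1829b and 0.56 with mir-1829c.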

How the data were processed

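Small RNA of whole worms was sequenced in 12 libraries. The deposited table holds whole-number read counts per hairpin with no normalization by the authors, both arms of a hairpin together. Tools in the submitters' processing notes, listed there with no order, are SAMtools 1.3.1-9, BWA 0.7.12-r1039, Trimmomatic 0.36 and bcl2fastq 1.8.4. The sources used here do not give the build, the hairpin reference or the counting rule. Groups were taken from the labels, and replicate numbers follow the order of deposit. Precision is set by 4215830 to 11045174 reads per library.

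All hairpins passing filterByExpr (minimum count 10) were fitted with edgeR 4.0.16 in R 4.3.3 (TMM, quasi-likelihood F test, 4 group means, 8 residual degrees of freedom), with Benjamini-Hochberg adjustment over 181 hairpins and a threshold of 0.05. The test was run on simulated counts for the comparison at day 5 only. These had balanced changes in day 5 rotenone and no effect of age or lane, so the age comparisons were not covered. SE is the log2 fold change divided by the square root of F. The spread of a hairpin is estimated partly from the other hairpins, so tests and intervals rest on more than the 8 residual degrees of freedom. Paralog ratios were compared by exact permutation within strata, on log2 ratios with 0.5 added to each count.

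Alternatives were RLE factors, library size alone, no filter, omission of the 3 most abundant hairpins, DESeq2 1.42.0, limma-voom 3.58.1, only the groups compared, lane as a term, each lane alone and each library left out. The fit without mir-2209c was added after the data were seen. Named hairpins were all members, 3 most alike per member of at least 10 CPM, mirtrons, and hairpins within 10000 bases. Positions came from Ensembl's WBcel235 annotation, which matched 245 of 250 hairpins. Mature sequences and seeds were not analysed here. Members and lists were chosen with earlier results of these data known.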

Additional observations from a re-analysis of the deposited data

Results flagged for a closer look

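The rotenone effect of mir-1018 differed between the ages by the interaction test, at -0.45 on the log2 scale for day 15 minus day 5. It was 0.02 ± 0.08 at day 15 and 0.47 ± 0.08 at day 5, and the difference had an adjusted p of 0.0183 by edgeR's quasi-likelihood test, called in 20 of 22 other settings. The rotenone effect of mir-1829b differed in the same direction, at -0.36. It was -0.07 ± 0.07 at day 15 and 0.29 ± 0.07 at day 5, with an adjusted p of 0.0328 by the same test, called in 19 of 22 other settings.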

How the results depend on the processing

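Directions and calls with age held for the 8 hairpins under the alternatives run, except that mir-2209c in rotenone was not called within lane 7 (0.97, adjusted p = 0.104, edgeR quasi-likelihood test). With rotenone at day 5 the 2 calls among the 9 became 0 within lane 7, and at day 15 the count became 1 within lane 6. For the interaction the 2 calls became 0 within lane 7 and were 0 to 2 with 1 library left out. Over all tested hairpins, lane 7 alone gave 1 call for rotenone at day 5 (46 in the full fit) and 0 for the interaction (12 in the full fit), which was also 29 with lane as a term, 38 within lane 6 and 8 to 19 with 1 library left out, and lane 6 alone gave 3 calls at day 15. Each lane alone leaves 1 or 2 libraries a group, and a lone library is taken to vary like the others.

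The values that changed sign were small or unresolved and had no call in the full fit, and the cause was not tested. With rotenone at day 5, within lane 7, mir-1829a was -0.24 and mir-1829c -0.044, and with 1 library left out they were -0.094 to 0.112 and -0.017 to 0.098. With rotenone at day 15, within lane 7, mir-1018 was -0.012, mir-2209a -0.11 and mir-2209c -0.078, and within lane 6 mir-2208a was 0.39 and mir-2208b 0.31. There mir-2209a was -0.0015 with library size alone and -0.0090 without the filter. With 1 library left out at day 15 the ranges were -0.041 to 0.11 for mir-1018, -0.093 to 0.21 for mir-1829a, -0.30 to 0.081 for mir-2208a, -0.16 to 0.14 for mir-2208b, -0.026 to 0.094 for mir-2209a and -0.013 to 0.54 for mir-2209c. With age in DMSO mir-1829a was -0.078 within lane 7.

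For the interaction, mir-1829a was -0.0039 with RLE factors, -0.067 with library size alone, -0.067 without the filter, -0.10 without the 3 most abundant hairpins, -0.072 within lane 6 and -0.16 to 0.15 with 1 library left out. For mir-1829c it was 0.0052 with limma-voom, 0.0024 with lane as a term, 0.11 within lane 7, 0.0013 without mir-2209c and -0.073 to 0.057 with 1 library left out. Within lane 6 it was 0.16 for mir-2208b, 0.012 for mir-2209b and 0.086 for mir-2209c, and mir-2208a was called there (1.33, adjusted p = 0.0483, edgeR quasi-likelihood test). Among the log2 ratios, mir-1829b over mir-1829c between the ages was -0.0088 with lane as a second stratum and -0.0049 to 0.024 with 1 library left out. Between treatments mir-1829a over mir-1829c was -0.0041 with lane as a second stratum and -0.067 to 0.089 with 1 library left out, and mir-1829a over mir-1829b was -0.15 to 0.021 with 1 library left out.

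No paired analysis was possible because the labels give no replicate numbers. Depth limits mir-2208a, mir-2209b and mir-2209c, with 4 to 20 reads in each day 5 library.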
